A study of Rattus norvegicus with 24 samples.

Results

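D-type cyclins, their partner kinases, the inhibitors of those kinases and the retinoblastoma gene were followed through the development of mitral regurgitation (MR) in rat myocardium. The set holds 9 genes chosen by name, namely Ccnd1, Ccnd2, Ccnd3, Cdk4, Cdk6, Cdkn1a, Cdkn1b, Cdkn1c and Rb1, of 10797 genes listed in any deposited table. All 9 were listed in each of the 4 tables, and all 9 reached the mean of at least 1 normalised count needed for a test. The choice drew on these data, since Ccnd2 had been seen among the largest rises at 40 weeks and Ccnd1 to be lower at 20 weeks. The values of the 9 genes at 20 and 40 weeks against Sham are therefore given as a description, and no test is read for them there.

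D-type cyclins bind Cdk4 or Cdk6, and the active complex phosphorylates the retinoblastoma protein, which then releases E2F factors that switch on the genes of S phase. The products of Cdkn1a, Cdkn1b and Cdkn1c (p21, p27 and p57) bind cyclin and CDK complexes and restrain them. Cardiomyocytes of the adult heart seldom divide, while its fibroblasts, endothelial cells and leukocytes can, and in mice a Ccnd2 transgene lets cardiomyocytes re-enter the cycle.

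RNA of Sprague-Dawley rat myocardium was sequenced in 24 libraries. In MR rats the left chest was opened and a mitral leaflet was pierced, and Sham rats had the operation with the leaflet left whole. There were 4 MR libraries from 2 weeks after surgery, 5 each from 10, 20 and 40 weeks, and 5 Sham libraries, all from 2 weeks. Time with MR, age and handling therefore cannot be told apart at 10, 20 and 40 weeks. The labels give no sex, age, heart chamber or batch and do not say that each library is a separate animal, so p-values measure the spread between these libraries, which may be technical.

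Each table held 1 MR time beside the same Sham libraries, as normalised read counts, and the libraries held 7.69 to 12.1 M reads on listed genes. No interval from such depth is given, and each ± below is an SE from limma or an SD between libraries. All 8 cardiomyocyte markers were listed, with summed levels of 24017 to 45446 per library, while 6 of 8 lymphocyte markers and the skeletal myosins Myh4, Myh1 and Myh2 were not listed in every table. In such bulk tissue, fewer cells of a type and less RNA per cell cannot be told apart. Fold changes below are log2 differences of value + 1 from limma ± SE, a scale that understates the change of low genes, and levels are not compared between genes because no transcript lengths were used.

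Ccnd2, which encodes cyclin D2 (chromosome 4, 159674885 to 159697208, minus strand; positions are those of the tables on rn6), was high at 40 weeks and low at every other time. Its level was 44.1, 40.4, 13.9, 44.7 and 37.0 normalised counts in the 5 MR libraries at 40 weeks, against 2.48, 1.35, 2.19, 5.86 and 6.68 in the 5 Sham libraries. The lowest MR library, replicate 3, still lay above the highest Sham library, so the groups did not overlap. The difference was 3.02 ± 0.35 (SE), the second largest of 10094 genes, and 2.81 to 3.32 when any library was left out. That rank restates the choice of Ccnd2, which drew on its rise at 40 weeks. These values rest on 339 to 1114 reads per MR library at 40 weeks and 31 to 136 reads per Sham library.

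At the earlier times Ccnd2 lay in or near the Sham range. At 2 weeks it was 1.64, 8.27, 1.25 and 4.63 in MR libraries, against 2.65, 1.43, 2.27, 6.09 and 7.03 in Sham libraries, a log2 difference of −0.07 ± 0.45 (limma adjusted p = 0.984). Both groups spread widely around low levels and overlapped. At 10 weeks it was 1.72, 1.11, 1.72, 1.58 and 2.83 in MR libraries, against 2.52, 1.39, 2.27, 5.83 and 6.85 in Sham libraries, a difference of −0.65 ± 0.29 (limma adjusted p = 0.391). The MR libraries lay close together, and Sham replicates 4 and 5 lay above all of them. At 20 weeks MR libraries held 1.58, 1.64, 3.38, 3.03 and 10.8, against 2.43, 1.35, 2.22, 5.70 and 6.60 in Sham libraries, a difference of 0.02 ± 0.41. MR replicate 5 alone lay above the Sham libraries, and without it the difference was −0.35.

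**Figure D1:**
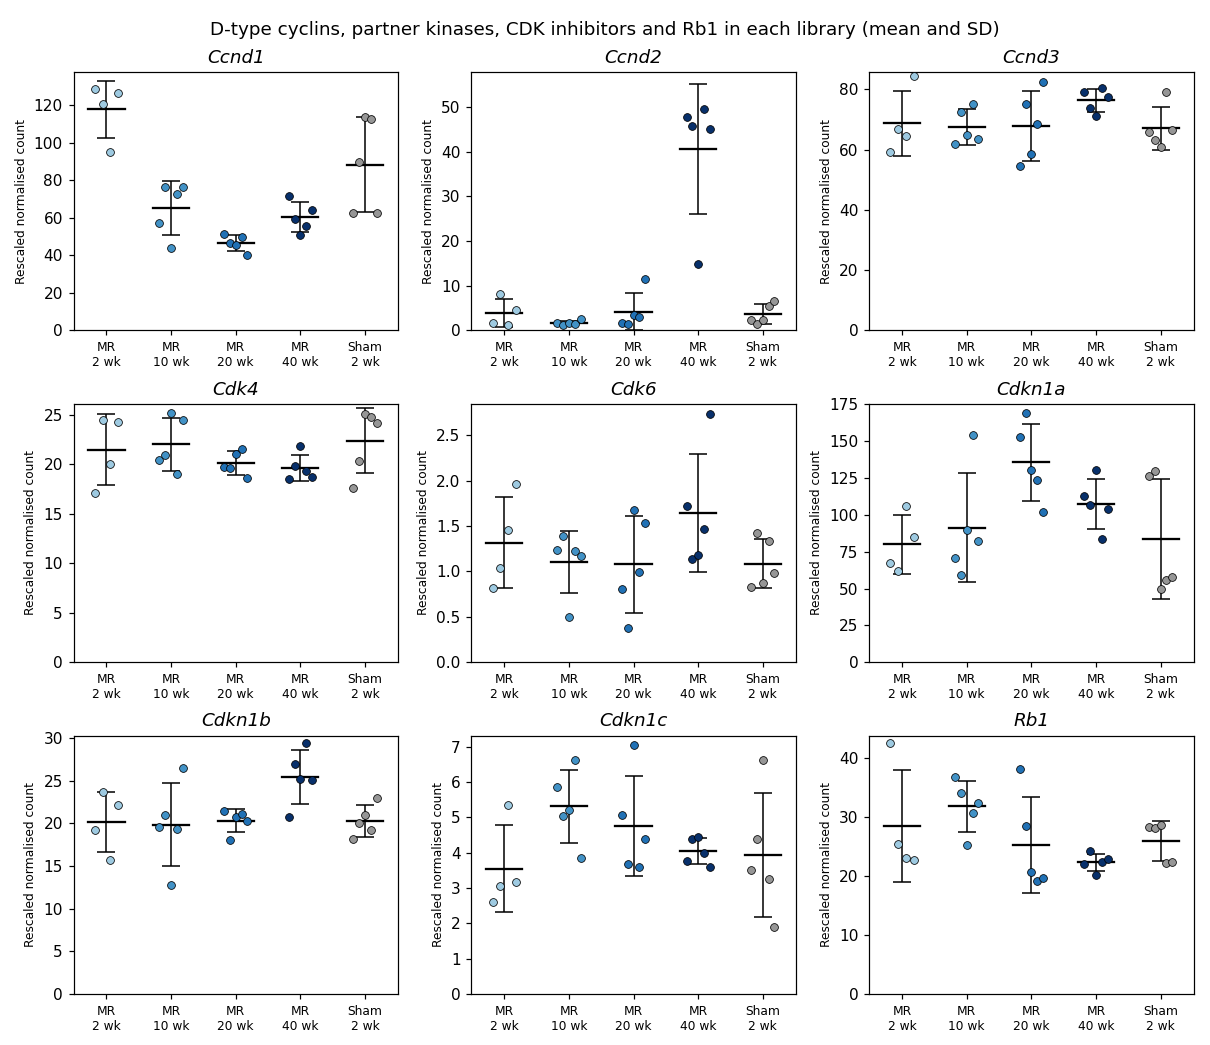
Level of each of the 9 genes (vertical axes, normalised counts rescaled to a joint scale) in every library of MR at 2, 10, 20 and 40 weeks and of Sham at 2 weeks (horizontal axes); points are libraries, the long bar is the mean and the whiskers are the SD. Ccnd2 is at 14.9 to 49.6 in MR libraries at 40 weeks and at most 11.4 in any other library, and Ccnd1 is at 95.1 to 128 in MR libraries at 2 weeks and 44.0 to 76.6 in those at 10 weeks.

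To set MR times beside each other, all 24 libraries were put on a joint scale, by dividing every library by the median, over genes, of its value relative to the geometric mean of that gene. There, Ccnd2 averaged 3.88 ± 3.12 at 2 weeks, 1.64 ± 0.53 at 10 weeks, 4.20 ± 4.11 at 20 weeks and 40.6 ± 14.5 at 40 weeks of MR, against 3.62 ± 2.28 in Sham libraries (SD, n = 4 at 2 weeks of MR and 5 elsewhere). Only MR at 40 weeks stood clear of the other groups, which overlapped each other. The log2 difference of MR at 40 weeks was 3.20 ± 0.44 from MR at 2 weeks, 3.89 ± 0.42 from MR at 10 weeks and 3.16 ± 0.42 from MR at 20 weeks. For the last of these, Ccnd2 had the highest difference of 9984 genes, a rank that restates its choice for a rise at 40 weeks.

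Ccnd1, which encodes cyclin D1 (chromosome 1, 218090750 to 218100273, minus strand), took another course, highest at 2 weeks of MR and lowest at 20 weeks. At 2 weeks it was 128, 124, 91.4 and 129 in MR libraries, against 71.4, 93.1, 111, 126 and 66.1 in Sham libraries. MR replicate 3 lay in the middle of the Sham range, replicate 2 near its top and replicates 1 and 4 above it, and the difference of 0.37 ± 0.21 did not pass (limma adjusted p = 0.840). At 10 weeks it was 63.8, 76.7, 48.9, 78.2 and 85.2 in MR libraries, against 67.8, 90.5, 111, 121 and 64.4 in Sham libraries, a difference of −0.34 ± 0.19 that did not pass (limma adjusted p = 0.510). Here MR libraries lay in the lower part of the Sham range and below it.

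Between these 2 MR times, which the choice of genes did not draw on, Ccnd1 fell. On the joint scale it was 57.0, 76.6, 44.0, 72.7 and 76.5 in MR libraries at 10 weeks, against 128, 121, 95.1 and 126 in MR libraries at 2 weeks. Every library at 10 weeks lay below every library at 2 weeks, and the log2 difference was −0.86 ± 0.18 (limma adjusted p = 0.0137 over 9984 genes). It was the only one of the 9 genes to pass, where 1.37% of all genes passed and 1.07% passed as lower, and the only one whose groups did not overlap, where this held for 5.16% of all genes and for 3.24% as lower. Without MR replicate 2 at 2 weeks the call was lost (adjusted p = 0.0520), the difference being −0.96 to −0.73 over all single libraries left out.

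Markers of dividing cells moved alongside. Of 23 tested, 15 passed as lower in MR at 10 weeks against MR at 2 weeks and 0 as higher. Over all genes 1.37% passed, 1.07% as lower. The markers had a median log2 difference of −1.05 against 0.00 over all genes. The lists were chosen with earlier results of these data known, so these counts are a description. Mki67, which marks cycling cells, was at −2.34 ± 0.24 and the DNA topoisomerase gene Top2a at −2.29 ± 0.23 (limma adjusted p = 2.96e-06 for both). The summed level of the 24 listed markers was 118 to 211 in MR libraries at 2 weeks, 66.4 to 86.0 at 10 weeks, 62.1 to 76.7 at 20 weeks and 74.2 to 87.0 at 40 weeks, against 73.4 to 113 in Sham libraries. Fibroblast markers had 2 of 8 lower and 0 higher, with a median difference of 0.18 of the other sign and sums of 748 to 1360 in MR libraries at 10 weeks and 882 to 2779 at 2 weeks. Of the atrial markers 3 of 5 were tested and 0 passed, with a median difference of 1.69. The part of these cells in the fall of Ccnd1 was not tested.

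**Figure D2:**
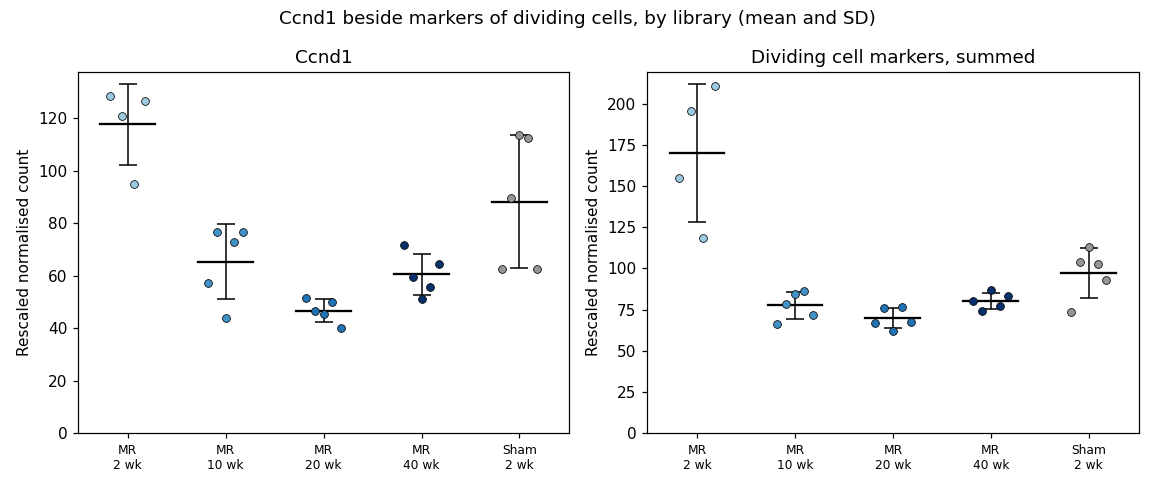
Ccnd1 (left) and the summed level of 24 markers of dividing cells (right), as rescaled normalised counts by library for MR at 2, 10, 20 and 40 weeks and Sham at 2 weeks; points are libraries, the long bar is the mean and the whiskers are the SD. In both panels every MR library at 2 weeks lies above every MR library at the later times.

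At 20 weeks Ccnd1 was 50.5, 49.9, 45.1, 49.2 and 38.0 in MR libraries, against 65.5, 88.2, 108, 118 and 62.0 in Sham libraries. All 5 MR libraries lay below the lowest Sham library, with a difference of −0.87 ± 0.18. At 40 weeks it was 66.1, 52.6, 47.7, 50.3 and 52.9 in MR libraries, against 66.9, 88.3, 107, 121 and 62.8 in Sham libraries, a difference of −0.68 ± 0.18, and −0.50 ± 0.17 on the joint scale. MR replicate 1 lay within the Sham range. On the joint scale Ccnd1 averaged 117.7 ± 15.4 at 2 weeks, 65.4 ± 14.4 at 10 weeks, 46.6 ± 4.36 at 20 weeks and 60.5 ± 7.94 at 40 weeks of MR, against 88.2 ± 25.3 in Sham libraries (SD, n = 4 at 2 weeks of MR and 5 elsewhere). From high to low the order was MR at 2 weeks, Sham, MR at 10, 40 and 20 weeks, and neighbours in this order overlapped in each case.

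Within a library, the ratio of Ccnd2 to Ccnd1 does not depend on how the library was scaled. Its log2 averaged −5.30 at 2 weeks, −5.34 at 10 weeks, −3.90 at 20 weeks and −0.69 at 40 weeks of MR, against −4.80 in Sham libraries. All 5 MR libraries at 40 weeks, at −1.78 to −0.17, lay above every other library, the nearest being MR replicate 5 at 20 weeks with −1.82. Both genes were part of the choice, so the ratio is a description.

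**Figure D3:**
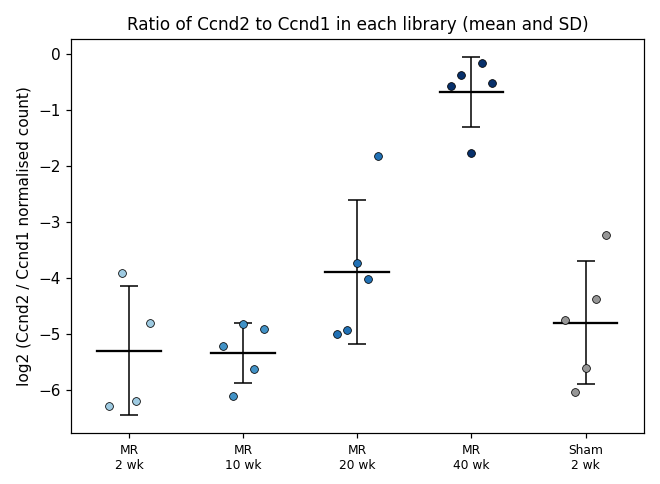
Log2 ratio of the Ccnd2 to the Ccnd1 normalised count (vertical axis) in each library of MR at 2, 10, 20 and 40 weeks and Sham at 2 weeks (horizontal axis); points are libraries, the long bar is the mean and the whiskers are the SD. MR libraries at 40 weeks lie between −1.78 and −0.17 and Sham libraries between −6.03 and −3.23.

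Ccnd3, which encodes cyclin D3 (chromosome 9, 15404865 to 15410896, minus strand), overlapped Sham at each time. It ranged over 59.2 to 86.1 in MR libraries at 2 weeks against 59.0 to 88.8 in Sham libraries, and over 69.0 to 80.8 in MR libraries at 10 weeks against 59.1 to 84.8 in Sham libraries. The differences were −0.06 ± 0.16 and 0.08 ± 0.12 (limma adjusted p = 0.960 and 0.841). At 20 and 40 weeks they were −0.01 ± 0.14 and 0.01 ± 0.13 as deposited. On the joint scale Ccnd3 was at 71.2 to 80.4 in MR libraries at 40 weeks against 60.7 to 79.1 in Sham libraries, a difference of 0.19 ± 0.11.

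Of the partner kinases, Cdk4 (chromosome 7, 70345971 to 70352690, plus strand) was at 17.04, 17.5, 20.4, 17.4 and 15.4 in MR libraries at 40 weeks, against 18.8, 20.0, 23.6, 26.8 and 24.3 in Sham libraries. MR replicate 3 lay within the Sham range, and the difference was −0.35 ± 0.13. It was −0.17 ± 0.11 on the joint scale, which brings the median of all genes to 0.00 at 40 weeks, where it is −0.15 as deposited. At 2, 10 and 20 weeks the differences were −0.14 ± 0.16, 0.05 ± 0.14 and −0.15 ± 0.12, and those at 2 and 10 weeks did not pass (limma adjusted p = 0.875 and 0.927). Cdk6 (chromosome 4, 27785641 to 27966399, minus strand) had only 8 to 54 reads per library. Its differences were 0.09 ± 0.20, 0.04 ± 0.18, −0.05 ± 0.20 and 0.21 ± 0.17 at 2, 10, 20 and 40 weeks, the last being 0.32 ± 0.19 on the joint scale, and at this depth no difference was detectable at 2 or 10 weeks.

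Among the inhibitors, Cdkn1a (chromosome 20, 6348422 to 6358865, plus strand) encodes p21, a target of p53. At 20 weeks it was 150.1, 181, 130.2, 122 and 96.2 in MR libraries, against 132, 128, 47.2, 58.3 and 57.1 in Sham libraries. Sham replicates 1 and 2 were high and overlapped the MR libraries, all of which lay above Sham replicates 3, 4 and 5. The difference was 0.79 ± 0.28, at percentile 99.45 of the genes tested. At 2, 10 and 40 weeks it was −0.05 ± 0.32, 0.24 ± 0.31 and 0.29 ± 0.27 (0.47 ± 0.26 on the joint scale at 40 weeks), and those at 2 and 10 weeks did not pass (limma adjusted p = 0.983 and 0.799).

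Cdkn1b (chromosome 4, 168689163 to 168693965, plus strand), which encodes p27, differed from Sham by −0.10 ± 0.16, 0.01 ± 0.16, −0.01 ± 0.11 and 0.13 ± 0.12 at 2, 10, 20 and 40 weeks, with overlapping groups at each time. At 40 weeks the joint scale put it at 0.31 ± 0.14. Cdkn1c (chromosome 1, 216661067 to 216663722, minus strand), which encodes p57, was at 6.55, 5.04, 5.78, 7.12 and 4.28 in MR libraries at 10 weeks, against 3.81, 4.43, 6.44, 3.50 and 1.96 in Sham libraries. Sham replicates 2 and 3 lay among the MR libraries, the other Sham libraries lay below them, and the difference of 0.47 ± 0.21 did not pass (limma adjusted p = 0.396). MR at 10 weeks differed from MR at 2 weeks by 0.49 ± 0.22, which did not pass either (limma adjusted p = 0.273). At 2, 20 and 40 weeks Cdkn1c differed from Sham by −0.15 ± 0.25, 0.25 ± 0.23 and −0.05 ± 0.20, and the joint scale turned the last of these to 0.10 ± 0.20.

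Rb1 (chromosome 15, 55081582 to 55277613, minus strand), the substrate of the cyclin D kinases, was at 41.2, 34.1, 28.1, 33.1 and 36.0 in MR libraries at 10 weeks, against 30.7, 28.5, 27.9, 23.9 and 23.1 in Sham libraries. MR replicate 3 lay among the Sham libraries and the other MR libraries lay above them all, and the difference of 0.35 ± 0.13 did not pass (limma adjusted p = 0.310). At 40 weeks Rb1 was at 20.4, 21.4, 18.96, 20.2 and 18.9 in MR libraries, against 30.3, 27.8, 26.9, 24.01 and 22.6 in Sham libraries, a difference of −0.37 ± 0.11. The groups did not overlap as deposited, but they did on the joint scale (20.3 to 24.2 against 22.3 to 28.7), where the difference was −0.20 ± 0.17. At 2 and 20 weeks it was 0.01 ± 0.19 and −0.09 ± 0.19.

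**Figure D4:**
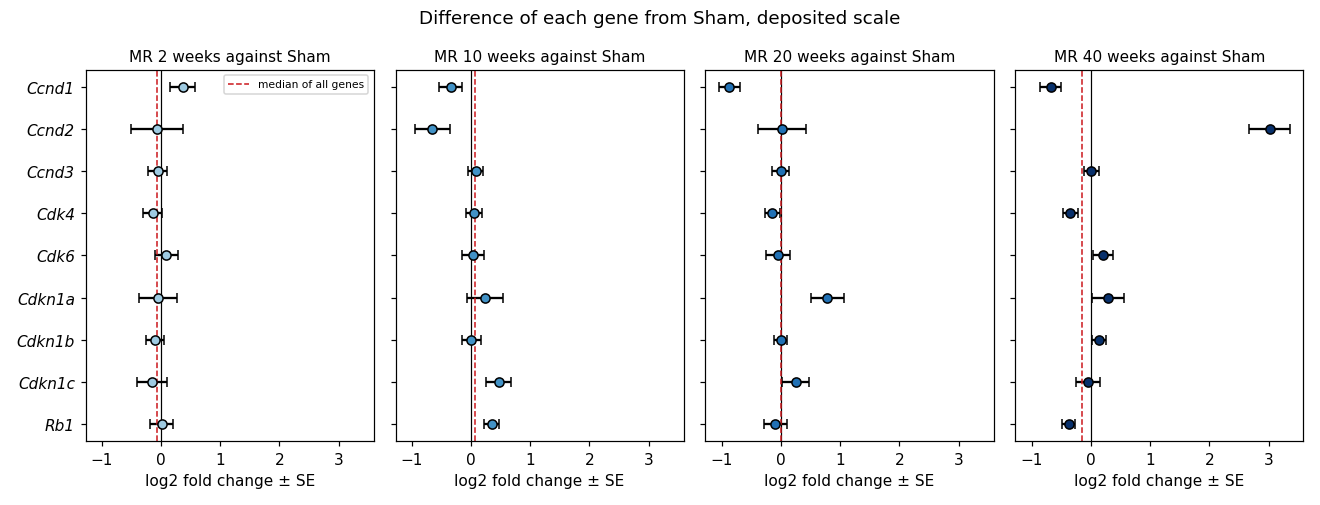
Log2 fold change of MR against Sham with its SE (horizontal axes) for the 9 genes (rows), one panel each for MR at 2, 10, 20 and 40 weeks; the dashed line is the median over all genes tested. Ccnd2 at 40 weeks (3.02) is the farthest from 0, and Ccnd1 is above 0 at 2 weeks (0.37) and below it at 10, 20 and 40 weeks.

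Counted together, none of the 9 genes passed at 2 weeks, where 0% of 10173 genes passed, and none had groups that did not overlap, where 2.16% of genes did. At 10 weeks 0 passed and 0 did not overlap, beside 0.168% and 2.45% of 10096 genes. At an unadjusted p under 0.05 limma had 0 of the 9 at 2 weeks and 3 at 10 weeks (Ccnd2, Cdkn1c and Rb1), beside 5.47% and 12% of genes, and edgeR and DESeq2 passed 0 of the 9 at either time. Over all genes edgeR passed 0% at 2 weeks and 0.0495% at 10 weeks, and DESeq2 0.561% and 0.823%. For the contrasts that entered the choice, 0 passed and 1 (Ccnd1, lower) did not overlap at 20 weeks, beside 0.0698% and 1.8% of 10025 genes (1.3% as lower). At an unadjusted p under 0.05 limma had 9.49% of all genes at 20 weeks, and edgeR passed 0 of the 9, beside 0.0798% of all genes, and DESeq2 1 (Ccnd1), beside 0.919%. At 40 weeks 4 passed (Ccnd2 higher, Ccnd1, Cdk4 and Rb1 lower) and 2 did not overlap, beside 47.3% and 29.2% of 10094 genes, with 16.3% of genes passing as higher and 30.9% as lower. After median-ratio rescaling at 40 weeks 2 passed, Ccnd2 higher and Ccnd1 lower, beside 45.5% of 10077 genes, 23.7% as higher and 21.8% as lower. Nothing is read from these counts at 20 and 40 weeks.

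Promoter windows from RefSeq (assembly GRCr8, 250 bases before to 50 after the annotated start) were found for 5 of the 9 genes, Ccnd3, Cdk4, Cdkn1a, Cdkn1b and Rb1, and not for Ccnd1, Ccnd2, Cdk6 and Cdkn1c. They were searched on both strands for the E-box CACGTG, the cyclic AMP element TGACGTCA, the AP-1 element TGANTCA, the GC box GGGCGG and the p53 decamer, the repeated unit of p53 response elements. Of 33469 windows, 6.418% held the E-box, 1.829% the cyclic AMP element, 7.329% the AP-1 element, 33.06% the GC box and 7.981% the p53 decamer. Matches in the 5 windows did not overlap each other. The windows of Cdk4 (chr7:64771203-64771502, plus strand) and Cdkn1a (chr20:7150682-7150981, plus strand) are shown because they hold the motifs of 2 known regulators of these genes, Myc and p53, and the capitals mark the E-boxes in Cdk4 and the p53 decamer in Cdkn1a.
Cdk4: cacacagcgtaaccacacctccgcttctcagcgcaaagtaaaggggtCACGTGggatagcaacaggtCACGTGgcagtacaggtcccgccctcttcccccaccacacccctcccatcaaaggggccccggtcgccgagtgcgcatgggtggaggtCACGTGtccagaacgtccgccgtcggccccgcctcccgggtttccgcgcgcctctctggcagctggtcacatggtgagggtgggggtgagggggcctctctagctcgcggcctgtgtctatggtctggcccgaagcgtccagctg
Cdkn1a: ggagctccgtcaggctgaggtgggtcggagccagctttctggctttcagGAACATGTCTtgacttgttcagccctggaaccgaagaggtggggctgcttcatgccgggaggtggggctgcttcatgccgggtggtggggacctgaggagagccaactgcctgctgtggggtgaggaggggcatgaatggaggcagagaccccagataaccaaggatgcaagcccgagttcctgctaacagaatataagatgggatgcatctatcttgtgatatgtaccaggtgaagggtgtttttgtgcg

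The 3 E-boxes of Cdk4 start at positions −203, −183 and −95 from its start site, and its window also holds 1 GC box. The p53 decamer of Cdkn1a starts at position −201. GC boxes numbered 6 in Rb1, 3 in Ccnd3 and 1 in Cdkn1b, Rb1 also held 1 p53 decamer, and the cyclic AMP and AP-1 elements were in none of the 5. Cdk4 and Cdkn1a did not pass at 2 or 10 weeks, and a match is only a run of letters.

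The other genes of the pathway were counted from lists. Against Sham, 0 genes of the 7 lists below passed at 2, 10 or 20 weeks with limma or with edgeR, of 146, 141 and 141 tested. At an unadjusted p under 0.05 limma had 25, 21 and 31 of them at those times, beside 5.47%, 12% and 9.49% of all genes. DESeq2 passed 11, 3 and 1 of them, beside 0.561%, 0.823% and 0.919% of all genes. Markers of dividing cells made up 16 of the 25 at 2 weeks and 7 of the 11 that DESeq2 passed, all of them higher in MR. The mitotic kinesin gene Kif20a averaged 6.38 in MR libraries at 2 weeks against 2.09 in Sham libraries, and the kinetochore gene Cenpf 7.01 against 1.73. Their differences of 1.26 ± 0.22 and 1.52 ± 0.27 did not pass with limma (adjusted p = 0.313 for both). Macrophage markers stood higher at the same time, 8 of 9 above 0 with a median difference of 0.36 against −0.07 over all genes. Limma passed 0 of the 9 and had 3 at an unadjusted p under 0.05, edgeR passed 0 and DESeq2 1, and their summed level was 109 to 157 in MR libraries at 2 weeks against 77.9 to 143 in Sham libraries. The macrophage mannose receptor gene Mrc1 was at 0.90 ± 0.21, which did not pass (limma adjusted p = 0.313). At 10 weeks 9 of 9 macrophage markers were above 0 against Sham, with a median of 0.53 against 0.06 over all genes. Limma passed 0 of these 9 there and had 6 at an unadjusted p under 0.05, while edgeR passed 0 and DESeq2 1. Of 23 markers of dividing cells, 4 were above 0 at 10 weeks, with a median of −0.26. Between MR at 10 and 2 weeks 4 of 9 macrophage markers were above 0, with a median of −0.003.

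At 40 weeks 47.3% of all genes passed and the median of all genes was −0.15, so each count is given as deposited and then after rescaling, where that median is −0.01. As deposited 16.3% of all genes passed as higher and 30.9% as lower, and 23.7% and 21.8% after rescaling. Nothing about the lists as sets is read from their counts at 40 weeks beside these shares. The list of partners of the D-type cyclins at the passage from G1 to S phase holds 34 genes, of which 17 were listed and 16 tested. Ccne1, Cdkn2a and E2f3 were among those not listed in every table. Of the 16 tested, 6 were lower and 0 higher, and after rescaling 3 were lower and 2 higher. Cdkn2c, an inhibitor of Cdk4 and Cdk6, was at −0.65 ± 0.17, with 2.05 to 3.32 in MR libraries against 3.48 to 6.43 in Sham libraries (limma adjusted p = 0.00687). Mnat1, an assembly factor of the CDK-activating kinase, was at −0.47 ± 0.13 (limma adjusted p = 0.00833). Both passed after rescaling as well.

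Genes that act on the stability of D-type cyclin proteins split 8 higher and 2 lower of 18 at 40 weeks, and 9 and 1 after rescaling. Gsk3b, a kinase that marks cyclin D1 for breakdown, was at 1.31 ± 0.20, with 4.02 to 10.3 in MR libraries against 1.57 to 2.75 in Sham libraries (limma adjusted p = 2.81e-04). Cul4a, a scaffold of a ubiquitin ligase, was at 1.15 ± 0.18 (limma adjusted p = 3.71e-04). Transcription factors and kinases known to induce D-type cyclin genes split 6 higher and 3 lower of 21, and 9 and 1 after rescaling. Yap1, a coactivator of the Hippo pathway, was at 1.87 ± 0.20, with 9.40 to 20.9 in MR libraries against 2.87 to 5.85 in Sham libraries (limma adjusted p = 1.30e-04), and the AP-1 gene Fosl2 was at 0.72 ± 0.12 (limma adjusted p = 5.67e-04).

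Beside Cdkn1a, genes of the p53 pathway split 2 higher and 6 lower of 23 at 40 weeks, and 3 and 4 after rescaling. The cell death genes Bbc3 and Bax, both p53 targets, were at −1.23 ± 0.17 and −1.21 ± 0.19 (limma adjusted p = 2.12e-04 and 3.37e-04). Beside Cdkn1b, FOXO factors and their targets split 8 higher and 0 lower of 15, and 10 and 0 after rescaling. Foxo3 was at 1.68 ± 0.19 and the insulin receptor substrate gene Irs2 at 1.84 ± 0.25 (limma adjusted p = 1.30e-04 and 1.97e-04), while Cdkn1b itself differed by 0.13 ± 0.12 as deposited and by 0.29 after rescaling. Among other cyclins and CDKs, 3 were higher and 12 lower of 27, and 5 and 8 after rescaling, with Ccnt2, a cyclin of transcription elongation, at −1.0 ± 0.14 and Cdk14 at 1.04 ± 0.21 (limma adjusted p = 1.97e-04 and 0.00136). Markers of dividing cells were lower for 13 of 23 and higher for 0, and 9 of 22 were lower and 0 higher after rescaling, with Mki67 at −1.24 ± 0.21 (limma adjusted p = 4.74e-04).

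Cell type markers were counted at 40 weeks too, against the Sham libraries from 2 weeks. Of all genes, 16.3% passed as higher and 30.9% as lower as deposited, and 23.7% and 21.8% after rescaling. Nothing about the markers as a set is read from their counts beside these shares. As deposited, cardiomyocyte markers split 1 higher and 3 lower of 8, endothelial markers 1 and 5 of 8, fibroblast markers 1 and 4 of 8, macrophage markers 0 and 4 of 9 and smooth muscle and pericyte markers 2 and 2 of 8. Adipocyte markers split 0 and 2 of 3, atrial markers 0 and 1 of 3, skeletal muscle markers 1 and 2 of 3 and lymphocyte markers 0 and 0 of 2. After rescaling the splits were 2 higher and 3 lower for cardiomyocyte, 1 and 4 for endothelial, 1 and 1 for fibroblast, 0 and 2 for macrophage and 2 and 1 for smooth muscle and pericyte markers. On the joint scale, the summed cardiomyocyte level was 24492 to 39518 in MR libraries at 40 weeks against 37592 to 42544 in Sham libraries, and the macrophage sum 48.6 to 112 against 77.9 to 143. Their part in the level of Ccnd2 was not tested.

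Between MR at 10 and 2 weeks, 3 more genes of the 7 lists passed, where 1.37% of all genes passed. They were 1 each of 16, 21 and 15 tested in their lists. The lists of cyclin stability, the p53 pathway and other cyclins and CDKs had 0 of 18, 22 and 26. Nothing about the lists is read from these counts. E2f1, a factor released by the retinoblastoma protein, was at −1.15 ± 0.25, with 0.75 to 2.55 in MR libraries at 10 weeks against 3.74 to 6.32 at 2 weeks (limma adjusted p = 0.0168). Fosl2 was at −0.95 ± 0.23 (limma adjusted p = 0.0349). Gabarapl1, an autophagy gene on the FOXO list, was at 0.47 ± 0.12 (limma adjusted p = 0.0466).

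The genes whose course over the 24 libraries was most like that of a member were sought among 9772 others, by the root mean square (RMS) difference between centred log2 profiles. For Ccnd2, whose own profile has an RMS of 1.54, they were Pkia (0.402), which encodes an inhibitor of protein kinase A, Sntb1 (0.409), a syntrophin gene, and Cavin4 (0.456), a muscle gene of caveolae. All 3 were high in MR libraries at 40 weeks, Pkia at 64.8 to 167 against 4.94 to 30.6 in Sham libraries. In each of them, as in Ccnd2, MR replicate 3 was the lowest at 40 weeks and MR replicate 5 the highest at 20 weeks. The 3 genes were picked for likeness to Ccnd2 over these same libraries, so nothing further is read from these shared features. For Ccnd1, with an RMS of 0.502, they included Nes (0.253) and Marcksl1 (0.267). Nes, which encodes the filament protein nestin, was at 76.2 to 115 in MR libraries at 2 weeks and 39.5 to 67.8 at 10 weeks. For Cdkn1a, with an RMS of 0.499, the nearest were Gramd3 (0.368), Rph3al (0.372) and Id4 (0.382), and each differs from it by most of its own spread.

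**Figure D5:**
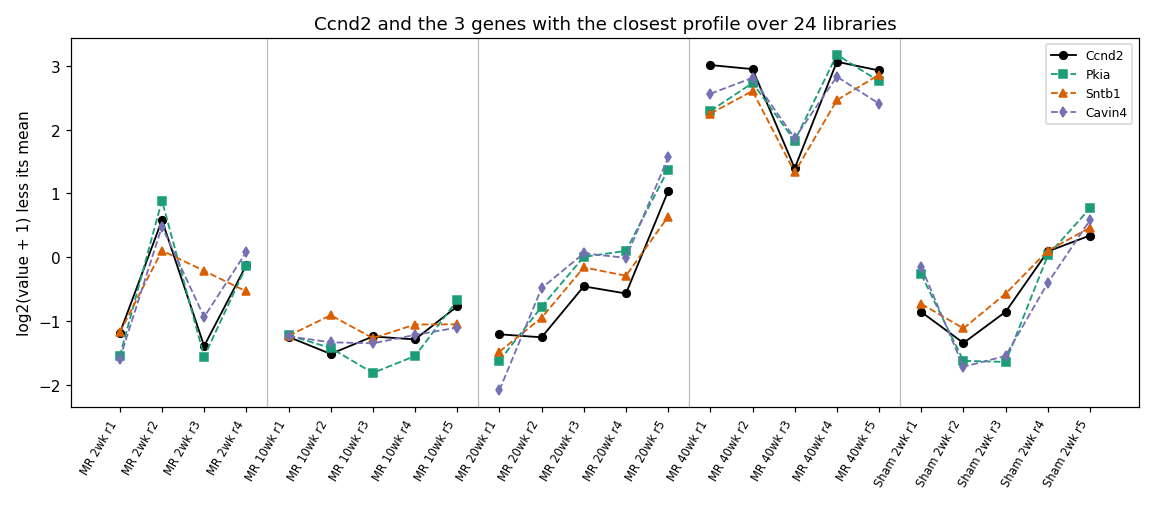
Log2(value + 1) less its mean over the 24 libraries (vertical axis) for Ccnd2 and the 3 genes with the closest profile, Pkia, Sntb1 and Cavin4, in each library (horizontal axis, by group and replicate). All 4 lines are highest in the MR libraries at 40 weeks, where replicate 3 is the lowest of the 5.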

How the data were processed

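The authors deposited 4 tables of normalised counts (unit signal, linear), made with Partek on rn6 per the submitters' processing notes. For the aligner, annotation, counting rule and scaling, the sources used here give nothing. Each table holds 1 MR time and the same 5 Sham libraries, 24 libraries in all. Undoing 1 factor per library put 97.7% to 97.8% of the values up to 200 reads within 0.1 read of a whole number, and these recovered reads gave the depth per library: 8.18 to 10.4 M at 2 weeks, 8.80 to 12.1 at 10 weeks, 9.08 to 10.02 at 20 weeks and 8.81 to 10.9 at 40 weeks of MR, against 7.69 to 9.70 in Sham. A Sham library differs between tables by a constant (ratios 0.916 to 1.00). Whether starts of the printed positions count from 0 or 1 is not stated.

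Per table, log2(value + 1) was tested with limma 3.58.1 in R 4.3.3 (empirical Bayes along a mean trend, genes with a mean of at least 1, two-sided, Benjamini-Hochberg over all genes, adjusted p under 0.05). MR times were compared in 1 fit of all 24 libraries and 9984 genes after median-ratio rescaling. The scripts were tested on simulated data. Alternatives were pseudocounts of 0.1 and 5, no filter, a mean of at least 10, median-ratio rescaling, edgeR 4.0.16 and DESeq2 1.42.0 on recovered reads, each library left out in turn and a replicate block. Rescaled list counts at 40 weeks were chosen after seeing the data.

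The 9 genes and the lists were chosen with earlier results of these data known. Named were the 9 genes, up to 2 genes per list and comparison (smallest p among those passing, or smallest p where none passed, of which those at 2 weeks for dividing cells are printed), and the 3 nearest profiles for Ccnd1, Ccnd2 and Cdkn1a. One of these neighbours is not reported here.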

Additional observations from a re-analysis of the deposited data

Results flagged for a closer look

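Ccnd1 lay on opposite sides of the Sham mean at 2 weeks and at later times of MR. Every MR library at 2 weeks was above the mean log2 level of the Sham libraries and every MR library at 10, 20 and 40 weeks was below it. The mean log2 difference from Sham was lower than at 2 weeks by −0.87 at 10 weeks, −1.33 at 20 weeks and −0.96 at 40 weeks. These 3 differences were not tested as such, and the choice of genes drew on the low level of Ccnd1 at 20 weeks. The fit of all libraries gave −0.86 for MR at 10 weeks less MR at 2 weeks (limma adjusted p = 0.0137), lower in 5 of 5 libraries. In the same way, every MR library at 40 weeks was above the Sham mean for Ccnd2 and every one at 10 weeks below it, 4.56 apart on the log2 scale, which was not tested.

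In 4 of 45 combinations of gene and group, 1 library stood apart from its group by a test that flags about 1 in 20 groups by chance. Ccnd2 was at 11.4 in MR replicate 5 at 20 weeks, where the others were at 1.53 to 3.40, and at 14.9 in MR replicate 3 at 40 weeks, where the others were at 45.0 to 49.6. Cdk6 was at 0.503 in MR replicate 3 at 10 weeks, with the others at 1.16 to 1.39. Rb1 was at 42.6 in MR replicate 1 at 2 weeks, with the others at 22.8 to 25.5. These are rescaled normalised counts.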

How the results depend on the processing

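The fall of Ccnd1 between 2 and 10 weeks of MR passed under every alternative other than leaving out MR replicate 2 at 2 weeks (adjusted p = 0.0520). The number of the 9 genes passing there was 0 to 1 with 1 library left out. Against Sham, DESeq2 passed 1 of the 9 at 20 weeks (Ccnd1), beside 0.919% of all genes. At 40 weeks 2 of the 9 passed after median-ratio rescaling, beside 45.5% of all genes, and 2 with edgeR, beside the gene counts given below. The choice of genes drew on both contrasts, so nothing is read from these counts. Genes passing numbered 57, 83, 92 and 364 with DESeq2 at 2 weeks, 10 weeks, 20 weeks and for MR at 10 against 2 weeks. They were 5 at 10 weeks both with edgeR and after rescaling, 4 at 20 weeks with a pseudocount of 5, and 2664 at 40 weeks and 33 for MR at 10 against 2 weeks with a mean of at least 10. With 1 library left out they were 0 to 29 at 10 weeks, 2 to 14 at 20 weeks and 52 to 306 for MR at 10 against 2 weeks. At 40 weeks 1648 were higher and 3124 lower, against 2391 and 2196 after rescaling, 2272 and 2330 with edgeR and 2462 and 2367 with DESeq2. The cause was not tested.

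Differences near 0 turned sign. At 2 weeks these were Ccnd3 (0.011) and Cdkn1a (0.017) after rescaling, and Ccnd2 (0.080 and 0.080) and Ccnd3 (0.0077 and 0.019) with edgeR and DESeq2. At 10 weeks they were Cdk4 (−0.029), Cdk6 (−0.0013) and Cdkn1b (−0.069) after rescaling, and Cdk4 (−0.027 and −0.034) and Cdkn1b (−0.034 and −0.042) with edgeR and DESeq2. Leaving out 1 library gave at 2 weeks −0.45 to 0.23 for Ccnd2, −0.17 to 0.021 for Ccnd3, −0.24 to 0.15 for Cdkn1a, −0.19 to 0.11 for Rb1, −0.19 to 0.030 for Cdkn1b and −0.041 to 0.20 for Cdk6. At 10 weeks it gave −0.017 to 0.099 for Cdk4, −0.010 to 0.16 for Cdk6 and −0.11 to 0.14 for Cdkn1b. Between MR at 10 and 2 weeks it gave −0.059 to 0.11 for Cdk4, −0.15 to 0.097 for Cdkn1b, −0.081 to 0.086 for Ccnd3 and −0.068 to 0.28 for Cdkn1a. At 20 weeks it gave −0.35 to 0.23 for Ccnd2, −0.073 to 0.072 for Ccnd3, −0.15 to 0.079 for Cdk6 and −0.029 to 0.034 for Cdkn1b, and at 40 weeks −0.054 to 0.089 for Ccnd3 and −0.22 to 0.10 for Cdkn1c. Rescaling turned Ccnd3 (0.0043) and Cdkn1b (0.0043) at 20 weeks and Cdkn1c (0.074) at 40 weeks, and edgeR or DESeq2 also turned these. With a mean of at least 10, Ccnd2, Cdk6 and Cdkn1c had no value at 2, 10 and 20 weeks, and Cdk6 and Cdkn1c none at 40 weeks or for MR at 10 against 2 weeks.

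No pairing was seen between MR and Sham libraries at 2 weeks that share a title number (correlations of deviations −0.125, −0.221, −0.024 and 0.328). Libraries with unlike numbers had −0.536 to 0.555, and so few pairs cannot exclude a pairing. The fit with a replicate block passed 0 genes and put Cdkn1a at 0.13.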
